A study of Mus musculus with 20 samples.

Results

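The Hox genes of the Hoxa, Hoxb, Hoxc and Hoxd clusters were followed across cultured mouse kidney myofibroblasts. The members are every protein-coding gene whose symbol is Hox, a cluster letter and a paralog number, which gave 39 of the 51826 genes in the count table. There are 11 in Hoxa, 10 in Hoxb, 9 in Hoxc and 9 in Hoxd. RNA had been sequenced from primary renal myofibroblasts, the matrix-producing cells that grow out of minced kidney, of C57BL/6J mice. The 20 libraries fall into 4 groups of 5: WT untreated, WT with TGFb1, WWP2-/- untreated and WWP2-/- with TGFb1. WWP2 is an E3 ubiquitin ligase, TGFb1 is the cytokine that drives fibroblasts towards the myofibroblast state, and WWP2-/- cells came from mice that lack it. The labels do not say which libraries share an animal or a culture, so the P values measure the spread between libraries.

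Hox genes encode transcription factors that bind DNA through a homeodomain. Within a cluster the genes lie in the order of their paralog numbers, and this order follows the order in which they are switched on along the body axis of the embryo, low numbers towards the head and high numbers towards the tail. Fibroblasts keep such a positional profile in adult tissues and in culture. In the developing kidney, the Hox11 paralogs are needed to start the organ, the Hox10 paralogs act in its stroma, and Hoxb7 is a classical gene of the ureteric bud and the collecting duct.

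The homeobox, the stretch of coding sequence for the homeodomain, is shown for Hoxc6, Hoxc8, Hoxc9 and Hoxb9, which differed between the genotypes with TGFb1 in the tests described further on, so that the closeness of neighbours and paralogs can be seen. Each is 180 bases, was found in the coding transcripts of GENCODE M21 on GRCm38 and lies in 1 exon. The capitals mark the 51 bases of codons 42 to 58, which encode the third helix, the part that reads the major groove of DNA.
Hoxc6 (chr15:103010754-103010933, plus strand, exon 2): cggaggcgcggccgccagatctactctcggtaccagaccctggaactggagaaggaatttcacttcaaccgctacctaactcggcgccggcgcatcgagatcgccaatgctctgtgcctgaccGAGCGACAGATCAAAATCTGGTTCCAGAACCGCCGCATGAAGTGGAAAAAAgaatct
Hoxc8 (chr15:102992571-102992750, plus strand, exon 2): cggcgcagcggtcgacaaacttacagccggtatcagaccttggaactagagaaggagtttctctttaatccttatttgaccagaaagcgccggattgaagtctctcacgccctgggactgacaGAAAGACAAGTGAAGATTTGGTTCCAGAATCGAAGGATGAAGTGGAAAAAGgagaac
Hoxc9 (chr15:102983930-102984109, plus strand, exon 3): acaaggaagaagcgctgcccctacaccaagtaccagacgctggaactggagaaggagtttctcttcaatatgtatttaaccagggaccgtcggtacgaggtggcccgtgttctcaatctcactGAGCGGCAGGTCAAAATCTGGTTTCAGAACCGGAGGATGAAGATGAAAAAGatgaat
Hoxb9 (chr11:96274659-96274838, plus strand, exon 2): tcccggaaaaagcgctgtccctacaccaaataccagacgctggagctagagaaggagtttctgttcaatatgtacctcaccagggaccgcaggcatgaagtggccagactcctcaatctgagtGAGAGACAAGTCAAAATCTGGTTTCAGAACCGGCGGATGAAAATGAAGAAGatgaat

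Hoxc9 and Hoxb9, which carry the same paralog number on different chromosomes, were identical at 151 of the 180 bases (83.9%), against 116 (64.4%) for the cluster neighbours Hoxc8 and Hoxc9. Over all 39 members, the median identity was 80.6% in the 42 pairs of the same paralog number and 61.7% in the 172 other pairs of the same cluster. The longest exact stretch shared by any transcripts of Hoxb9 and Hoxc9 was 50 bases. Longer stretches were shared by Hoxd3 and Hoxd4 (388 bases) and by Hoxc5 and Hoxc10 (168 bases), whose annotated transcripts overlap on the same strand, and by Hoxa6 and Hoxb4 (52 bases), which lie on different chromosomes.

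Depth ran from 47520759 to 73063697 counts per library, so that 3 counts, the limit that a count of 0 allows, were at most 0.0631 CPM, the unit used here, which scales counts to the same total in every library. The targeted gene Wwp2 was at 53.2 ± 3.43 and 50.2 ± 6.37 CPM in untreated and TGFb1-treated WT libraries and at 21.5 ± 1.99 and 19.5 ± 2.47 CPM in the WWP2-/- libraries (mean ± SD, n = 5 each). All 12 fibroblast markers reached a mean of 1 CPM in every group. So did all 9 endothelial markers, all 8 smooth muscle and pericyte markers and at least 9 of 10 macrophage markers. The summed level of the fibroblast markers was 6705 to 33666 CPM in the WT libraries and 4734 to 15354 CPM in the WWP2-/- libraries. Xist, the transcript of the inactive X chromosome, was at 35.5 CPM or more in 4 WT untreated, 4 WT TGFb1, 2 WWP2-/- untreated and 1 WWP2-/- TGFb1 libraries and at 0.126 CPM or less in the others, so libraries with Xist were not balanced between the genotypes. Some libraries stood apart in Hox levels. WWP2-/- untreated 3 and WWP2-/- TGFb1 1 had the lowest Hoxb8 of all 20 (18.6 and 17.2 CPM) and the highest Hoxc4 (23.8 and 21.4 CPM), and both had Xist. WT untreated 4 had 19.4 CPM of Hoxc8 against 76.0 to 96.9 CPM in the other WT untreated libraries, and WT TGFb1 3 had the highest summed Hoxa level of all libraries (335 CPM). Neither of these WT libraries had Xist. The tests between the genotypes were also run without them.

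The Hox genes held 0.101% of all counts. Of the 39 members, 31 had a mean of at least 1 CPM in at least 1 group, and a single library had between 29 and 31 members at that level. The 8 others were Hoxa13, Hoxb1, Hoxb13, Hoxc12, Hoxd1, Hoxd3, Hoxd12 and Hoxd13, none above 0.939 CPM in any library. Hoxb1, the most anterior Hoxb gene, had no count in any WT library and at most 0.0385 CPM in a WWP2-/- library. At the other end, Hoxa13, Hoxb13, Hoxd12 and Hoxd13 stayed at or below 0.311 CPM, while Hoxc13 ranged from 0.602 to 6.62 CPM. Transcripts of the middle of each cluster were thus present, and little was counted from either end of Hoxb and Hoxd.

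**Figure D1:**
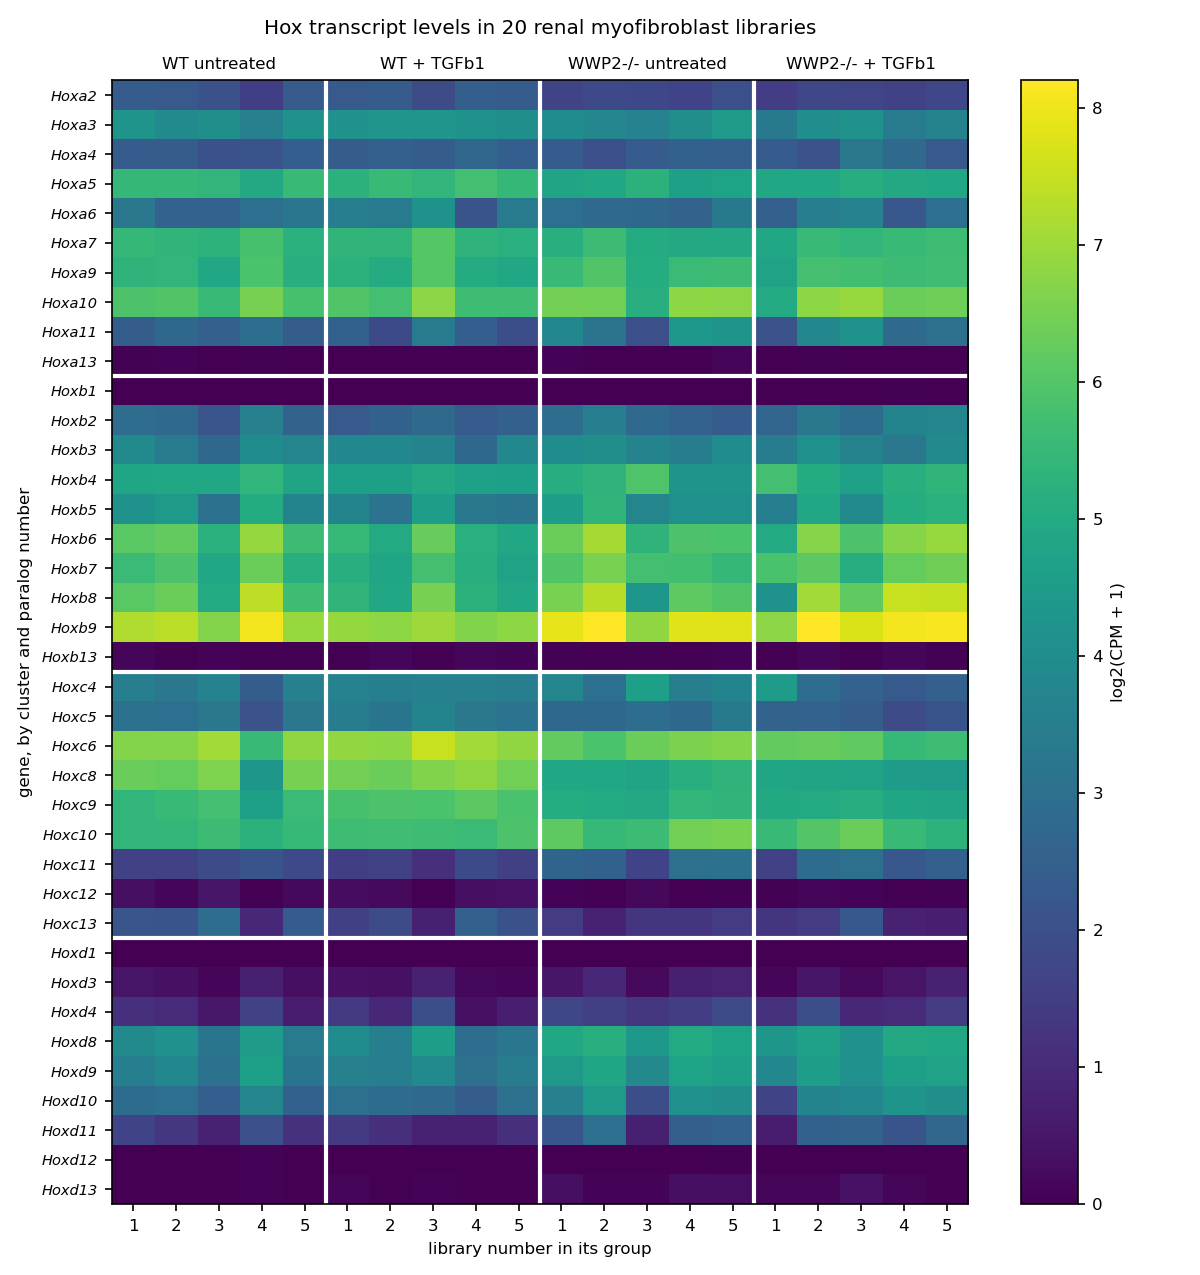
Level of each of 38 Hox genes (rows, by cluster and paralog number) in each of the 20 libraries (columns, by group) as log2(CPM + 1). Hoxb9 is bright in every column, Hoxb1, Hoxd1 and most genes of paralog numbers 12 and 13 are dark in every column, and Hoxc8 is brighter in every WT library but untreated 4 than in the WWP2-/- libraries.

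Paralog numbers 6 to 10 together made up 74.6% to 86.5% of the Hox counts of a library, numbers 1 to 3 made up 2.97% to 5.29% and numbers 11 to 13 made up 1.001% to 3.27%. Number 9 alone held 28.1% of the mean Hox level and number 6 held 16.8%. Levels of different genes were compared per kb of exon. On that scale, averaged over the 20 libraries, Hoxb9 was highest (70.1 CPM per kb), followed by Hoxc6 (38.9), Hoxb6 (34.5), Hoxb7 (33.9), Hoxb8 (30.4), Hoxc10 (28.5), Hoxa10 (22.8), Hoxc8 (19.7) and Hoxa5 (19.0 CPM per kb). Hoxb9 led in 14 libraries and Hoxc6 in the other 6, which were all 5 WT TGFb1 libraries and WT untreated 3. The order differed between the groups. In untreated WT, WT with TGFb1, untreated WWP2-/- and WWP2-/- with TGFb1, Hoxc6 ranked 2, 1, 5 and 6 by group mean, Hoxc8 ranked 6, 3, 12 and 15, and Hoxb9 ranked 1, 2, 1 and 1. Hoxb6 and Hoxb7 overlapped in every group, at 18.8 to 59.8 and 18.4 to 52.4 CPM per kb in untreated WT, whereas Hoxb9 lay above Hoxc6 without overlap in untreated WWP2-/- (44.4 to 114 against 24.0 to 42.2 CPM per kb) and in WWP2-/- with TGFb1 (41.8 to 113 against 18.2 to 32.3 CPM per kb).

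**Figure D2:**
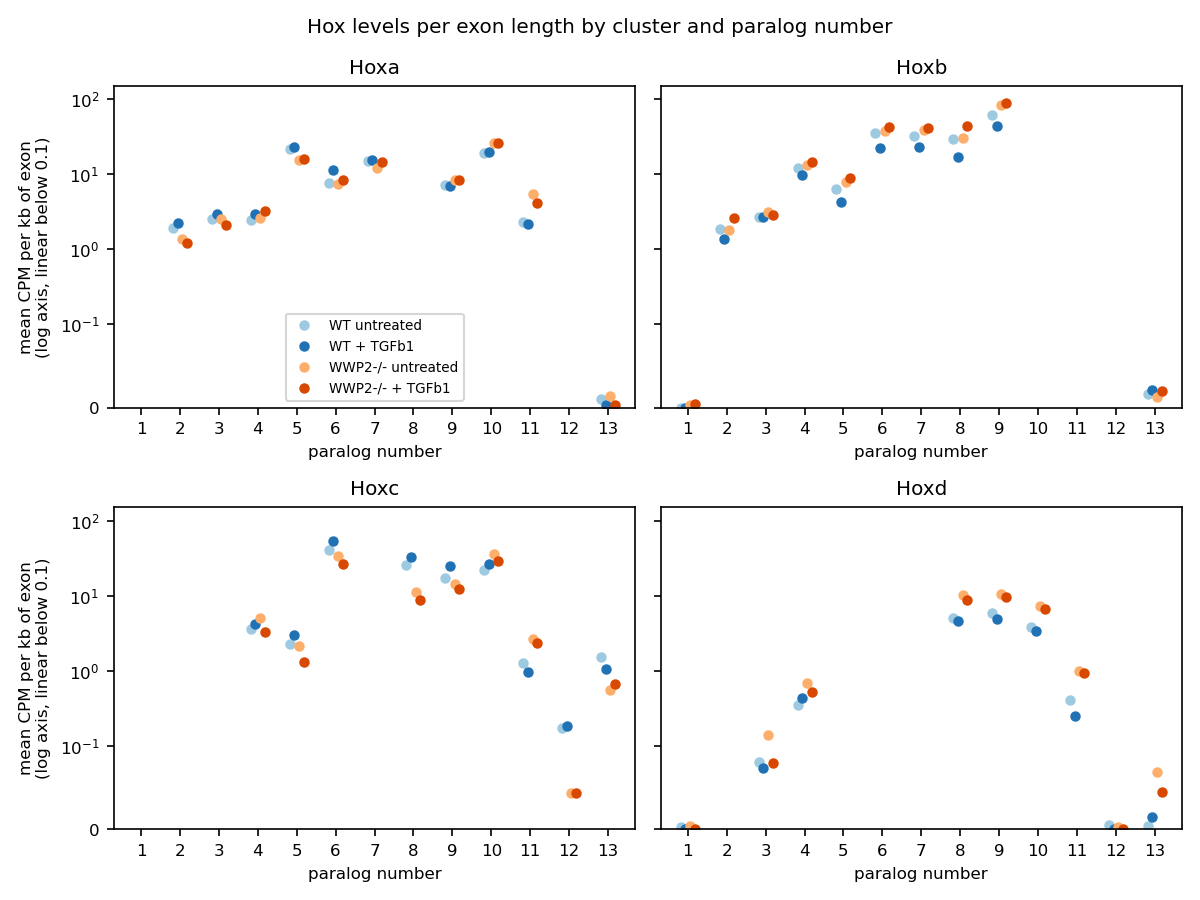
Mean level per kb of exon (log axis, linear below 0.1 CPM per kb) against paralog number for each cluster, 1 point per group of 5 libraries. Levels peak at paralog numbers 5 to 10 in each cluster, and both orange WWP2-/- points lie below both blue WT points at Hoxc8 and Hoxc9 and above them at Hoxd8 to Hoxd11.

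In the Hoxa cluster (chromosome 6, minus strand, GRCm38), Hoxa10 and Hoxa5 were the most abundant per length. Hoxa10, a gene of posterior and stromal identity, ranged from 31.0 to 122 CPM and Hoxa5 from 24.3 to 52.8 CPM. The range was 29.4 to 64.2 CPM for Hoxa7, 25.2 to 64.9 CPM for Hoxa9 and 8.98 to 20.9 CPM for Hoxa3. It was 3.41 to 17.0 CPM for Hoxa6, 2.59 to 19.6 CPM for Hoxa11 and 2.98 to 8.51 CPM for Hoxa4. Hoxa2, which patterns the hindbrain in the embryo, ranged from 1.83 to 4.56 CPM, or 1.69 CPM per kb on average. Hoxa11 and Hoxa3 share 35.0% and 27.1% of their exon bases with noncoding genes, at least in part on the opposite strand, and the strand setting of the counting is not given in the sources used here.

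In the Hoxb cluster (chr11:96194316-96368256, plus strand), levels per length were 1.91 and 2.84 CPM per kb at Hoxb2 and Hoxb3 and 70.1 CPM per kb at Hoxb9. The rise between them was not steady. Hoxb5 (6.80) lay below Hoxb4 (12.3), and levels fell from Hoxb6 (34.5) to Hoxb7 (33.9) and Hoxb8 (30.4 CPM per kb). Hoxb9 ranged from 98.2 to 293 CPM, Hoxb8 from 17.2 to 181 CPM, Hoxb6 from 29.1 to 135 CPM and Hoxb7 from 25.5 to 92.1 CPM. The range was 18.1 to 60.2 CPM for Hoxb4, 7.29 to 40.6 CPM for Hoxb5, 5.84 to 16.2 CPM for Hoxb3 and 3.48 to 12.7 CPM for Hoxb2. Hoxb3 shares 52.9% of its exon bases with the antisense gene Hoxb3os, so its level is uncertain. In the Hoxc cluster (chr15:102921103-103036852, plus strand), Hoxc6 ranged from 43.9 to 179.6 CPM, Hoxc8 from 19.4 to 114 CPM, Hoxc10 from 37.2 to 93.6 CPM and Hoxc9 from 24.2 to 68.5 CPM. Per length Hoxc9 was at 17.2 CPM per kb, against 4.03 for Hoxc4, 2.17 for Hoxc5 and 1.81 CPM per kb for Hoxc11. Their ranges were 4.03 to 23.8 CPM, 2.68 to 11.9 CPM and 1.14 to 7.55 CPM. The Hoxd cluster (chr2:74668310-74765142, plus strand) reached at most 7.68 CPM per kb as a mean over all libraries (Hoxd9) and 10.4 CPM per kb as a group mean (Hoxd9 in untreated WWP2-/-), with Hoxd8 at 6.83 to 34.9 CPM, Hoxd9 at 7.19 to 27.6 CPM, Hoxd10 at 2.24 to 20.3 CPM, Hoxd11 at 0.589 to 6.93 CPM and Hoxd4 at 0.288 to 2.89 CPM. Hoxd4 and Hoxd3 share 52.3% and 62.9% of their exon bases with each other or with other genes, and both levels are uncertain.

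The clusters made up different shares of the Hox level in the 4 groups. The summed Hox level was 962 ± 148 and 917 ± 168 CPM in untreated and TGFb1-treated WT, and 1064 ± 208 and 1074 ± 239 CPM in the WWP2-/- groups. Hoxc summed to 360.0 ± 37.6 CPM in WT and 191 ± 40.3 CPM in WWP2-/- with TGFb1, with no overlap of the libraries (327 to 411 against 147 to 234 CPM). Its share of the Hox counts was 33.9% to 44.7% against 11.9% to 30.8%. Hoxb summed to 290.2 ± 74.4 CPM in WT and 577 ± 204 CPM in WWP2-/- with TGFb1, and there the libraries overlapped through WWP2-/- TGFb1 1 alone. That library was at 292 CPM, and the other 4 WWP2-/- libraries were at 433 to 763 CPM, above the 244 to 419 CPM of all 5 WT libraries. Untreated, Hoxc summed to 279 ± 84.8 and 244 ± 50.2 CPM and Hoxb to 424 ± 187 and 509 ± 176 CPM in WT and WWP2-/-, with overlap in both. Hoxd summed to 36.7 ± 16.9 and 32.0 ± 10.4 CPM in the WT groups and to 70.5 ± 20.3 and 62.3 ± 17.3 CPM in the WWP2-/- groups, and Hoxa stayed between 223 and 244 CPM on average. Genes of paralog numbers 9 and 10 held 35.2% to 39.9% of the Hox counts in WT TGFb1 libraries and 37.8% to 51.6% in WWP2-/- TGFb1 libraries. These sums are descriptions and were not tested. In such bulk libraries, fewer cells with a profile and less RNA per cell cannot be told apart.

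The first comparison asked which Hox genes differ between WWP2-/- and WT cells under TGFb1. Of the 39 members, 34 passed the filter on low counts. They entered a quasi-likelihood fit in edgeR, with P values adjusted over all 20407 genes tested. In all, 7 of 34 members passed the threshold of an adjusted P of 0.05, against 6.07% of all genes. Those that fell were Hoxc8, Hoxc9, Hoxc5, Hoxc6, Hoxa2 and Hoxa5, and Hoxb9 rose. The background was 3.97% of genes lower and 2.1% higher. A further 11 members had an unadjusted P under 0.05, which made 18 in all. The share of all genes at that cut is not given here or below. Counts of members by unadjusted P therefore cannot be set against a background and are not read as a trait of Hox genes. By cluster, 4 of 9 Hoxc genes, 2 of 10 Hoxa genes, 1 of 8 Hoxb genes and 0 of 7 Hoxd genes passed, where 6, 3, 6 and 3 had an unadjusted P under 0.05 and DESeq2's Wald test called 13 members in all, against 13.1% of all genes. The median log2 difference was -1.12 for Hoxc, 0.81 for Hoxb, 0.83 for Hoxd and -0.06 for Hoxa, beside 0.05 for all genes tested.

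Hoxc8 (chr15:102990607-102994111, plus strand), a gene of thoracic identity, showed the lowest adjusted P of the members. It was at 88.5, 81.3, 99.3, 114 and 87.3 CPM in the 5 WT libraries with TGFb1 and at 27.9, 26.6, 25.3, 21.9 and 20.6 CPM in the 5 WWP2-/- libraries. Every WT value lay above every WWP2-/- value, and the log2 difference was -2.06 (SE 0.31, adjusted P = 0.00527). Its neighbour Hoxc9 (chr15:102976439-102985099, plus strand) was at 55.7, 59.2, 57.9, 68.5 and 57.0 CPM in WT and 30.3, 31.2, 33.6, 27.2 and 26.5 CPM in WWP2-/-. The groups again did not overlap, with a log2 difference of -1.12 (SE 0.20, adjusted P = 0.00697). Hoxc6 (chr15:102998257-103011881, plus strand) was at 115, 112, 179.6, 132 and 112 CPM in WT and 73.7, 77.7, 73.0, 43.9 and 48.8 CPM in WWP2-/-. WT TGFb1 3 was highest and no values overlapped, and the log2 difference was -1.13 (SE 0.27, adjusted P = 0.0207). Hoxc5 (chr15:102967443-103017429, plus strand), within whose span Mir615 lies, was at 9.79, 8.17, 11.9, 8.56 and 7.65 CPM in WT and 5.13, 4.94, 4.38, 2.68 and 3.37 CPM in WWP2-/-. Its log2 difference was -1.27 (SE 0.26, adjusted P = 0.0133), without overlap, and 5.37% of its exon bases are shared with Hoxc10.

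**Figure D3:**
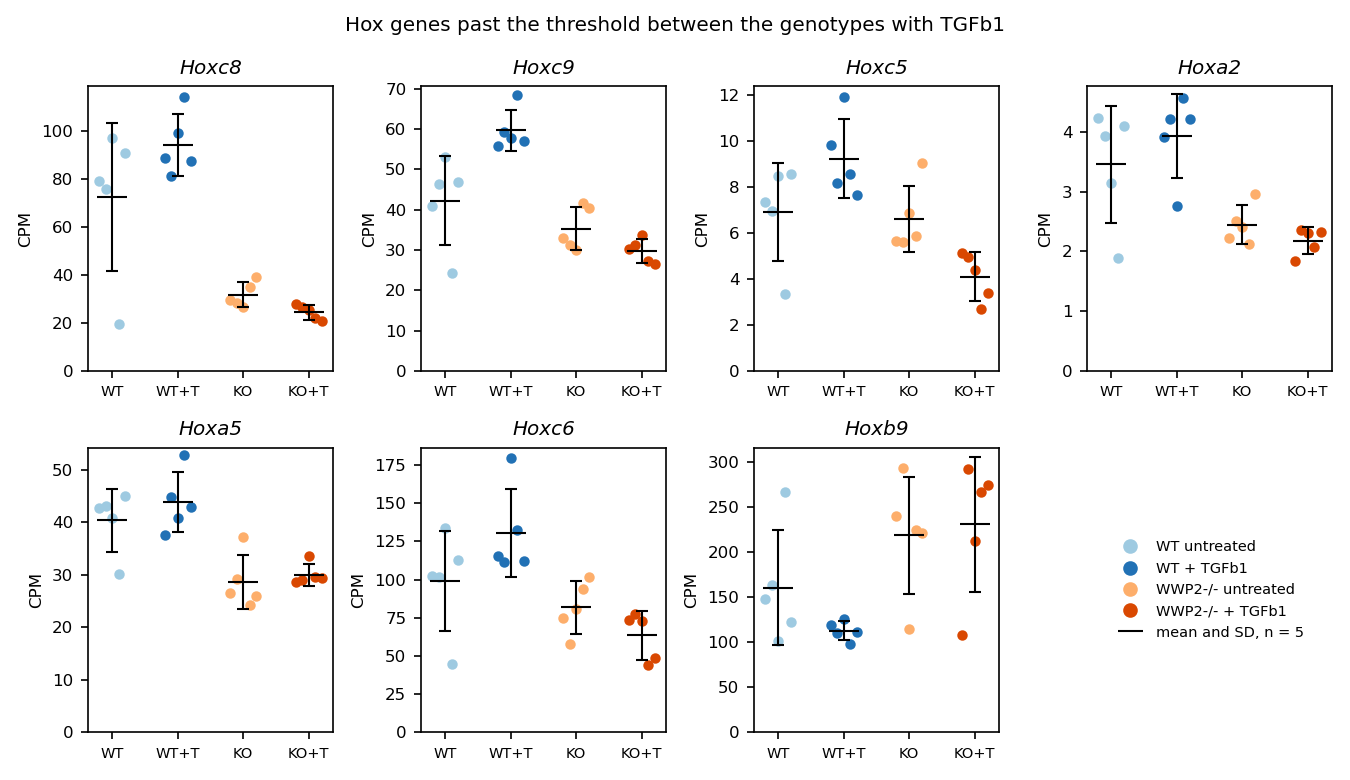
Level in CPM of the 7 Hox genes that passed the threshold between the genotypes with TGFb1, 1 point per library, with mean and SD (n = 5) for WT and WWP2-/- (KO) cells untreated or with TGFb1 (+T). For Hoxc8, Hoxc9, Hoxc5, Hoxc6, Hoxa2 and Hoxa5 the KO+T points all lie below the WT+T points, and in the untreated WT column of Hoxc8 1 library lies below every KO library.

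Both Hoxa genes that passed were lower. Hoxa5 (chr6:52201754-52204587, minus strand), a gene of cervical and lung patterning that is also kept in adult fibroblasts, was at 37.6, 44.9, 40.8, 52.8 and 42.8 CPM in WT and 28.6, 29.0, 33.7, 29.5 and 29.5 CPM in WWP2-/- with TGFb1, a log2 difference of -0.67 (SE 0.16, adjusted P = 0.0197). Hoxa2 (chr6:52162417-52164831, minus strand), a gene of hindbrain and second-arch identity, was at 3.92, 4.21, 2.76, 4.56 and 4.22 CPM and 1.83, 2.36, 2.31, 2.08 and 2.33 CPM, a log2 difference of -0.99 (SE 0.23, adjusted P = 0.0184). In both, WT and WWP2-/- values did not overlap, and 15.0% of the exon bases of Hoxa2 lie in another gene on the same strand. Together with the 4 Hoxc genes this made 6 of 34 members whose libraries did not overlap, against 5.53% of all genes tested. Hoxb9 (chr11:96271457-96276595, plus strand) was at 119, 110.1, 126, 98.2 and 111 CPM in WT and 108, 292, 212, 266 and 274 CPM in WWP2-/-, and WWP2-/- TGFb1 1 lay among the WT values. The log2 difference was 0.89 (SE 0.25, adjusted P = 0.0397).

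The 300 bases around the start of Hoxa2 and Hoxa5 (250 before and 50 after, RefSeq, GRCm38.p6) are shown because, of the genes that passed, these have an entry among the 22 Hox genes in the promoter table. The capitals mark TGATNNAT, the letters bound by Pbx and Hox proteins together, and TGACAG, the letters bound by Meis proteins, searched on both strands. They did not overlap each other here.
Hoxa2 (chr6:52164782-52165081, minus strand): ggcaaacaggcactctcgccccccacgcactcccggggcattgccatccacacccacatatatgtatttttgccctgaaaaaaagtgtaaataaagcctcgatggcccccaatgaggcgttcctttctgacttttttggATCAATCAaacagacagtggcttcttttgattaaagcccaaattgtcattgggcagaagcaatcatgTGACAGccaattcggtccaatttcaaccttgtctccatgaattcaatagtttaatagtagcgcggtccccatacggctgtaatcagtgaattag
Hoxa5 (chr6:52204538-52204837, minus strand): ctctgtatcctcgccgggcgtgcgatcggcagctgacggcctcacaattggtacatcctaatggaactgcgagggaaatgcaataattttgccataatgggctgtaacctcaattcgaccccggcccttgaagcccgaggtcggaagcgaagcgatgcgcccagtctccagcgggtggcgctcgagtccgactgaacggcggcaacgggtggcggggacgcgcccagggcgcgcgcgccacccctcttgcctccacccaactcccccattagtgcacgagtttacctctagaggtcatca
Hoxa2 held 1 match of each and Hoxa5 held none of either. TGATNNAT was present in 8.85% and TGACAG in 19.2% of all 32851 promoters of this length, and in 4 and 2 of the 22 Hox genes. These are matches of letters, not bound sites.

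Among the members that did not pass with TGFb1, those with the lowest adjusted P had log2 differences above 0. The value was 0.84 (SE 0.25, adjusted P = 0.0541) for Hoxd9, 1.17 (SE 0.36, adjusted P = 0.0607) for Hoxc11 and 1.72 (SE 0.56, adjusted P = 0.0686) for Hoxd11. It was 0.79 (SE 0.26, adjusted P = 0.0749) for the anterior gene Hoxb2, 0.80 (SE 0.27, adjusted P = 0.0756) for Hoxd8 and 0.73 (SE 0.25, adjusted P = 0.0796) for Hoxb7. Hoxd9 was at 10.9, 10.5, 13.8, 7.19 and 9.90 CPM in WT and 13.2, 22.7, 16.9, 24.0 and 25.2 CPM in WWP2-/-, where WWP2-/- TGFb1 1 overlapped the WT values. Hoxc11 was at 1.93 ± 0.529 and 4.77 ± 2.07 CPM, and Hoxd11 at 1.06 ± 0.4 and 3.88 ± 2.01 CPM in the same groups. The log2 difference was 0.93 for Hoxb5, 0.83 for Hoxb6, 1.22 for Hoxb8, 0.83 for Hoxd10 and 0.89 for Hoxa11. It was 0.31 for Hoxa10 and -0.01 for Hoxc10, and -0.48 for Hoxc4 and -0.60 for Hoxa3. Hoxb8 had the widest range of these, from 17.2 CPM in WWP2-/- TGFb1 1 to 181 CPM in WWP2-/- TGFb1 4. The remaining tested members lay between -0.78 (Hoxc13) and 0.42 (Hoxb4), leaving aside Hoxc12, Hoxd3 and Hoxd13, which stayed below 1 CPM.

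**Figure D4:**
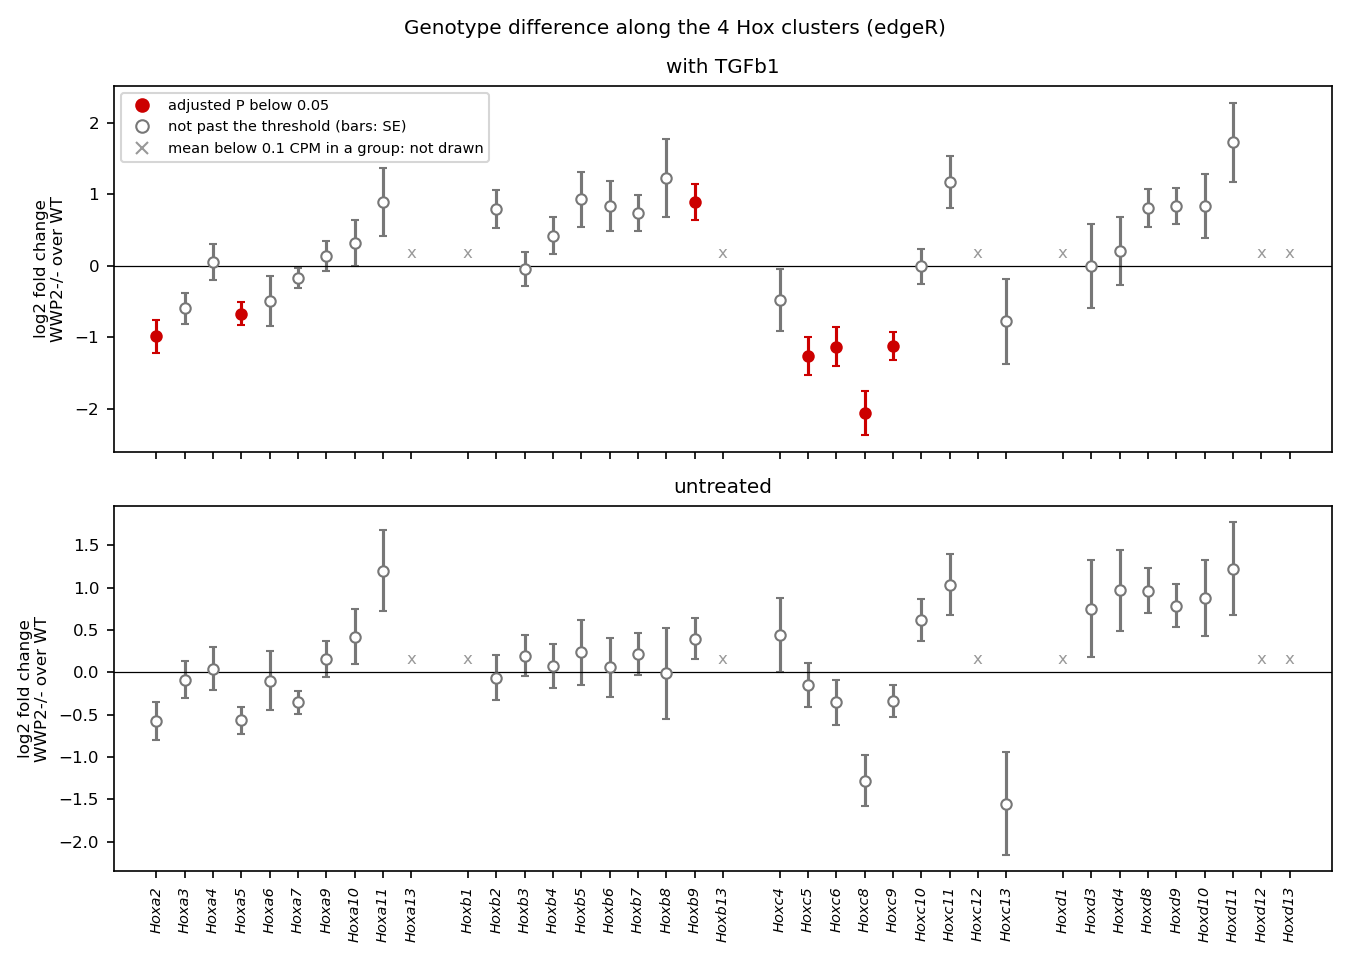
Log2 fold change of WWP2-/- over WT (edgeR, bars are the SE) along the clusters in order of paralog number, with TGFb1 (top) and untreated (bottom). Filled red points passed an adjusted P of 0.05, and 7 genes with a group mean below 0.1 CPM are not drawn but marked x. With TGFb1 the filled points of Hoxc5 to Hoxc9 lie between -1.12 and -2.06, and no point is filled in the untreated panel.

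The calls depended on the library composition to different degrees. Hoxc8, Hoxc9 and Hoxc5 passed under all 18 alternatives run, with the highest adjusted P at 0.0227, 0.0259 and 0.039. Hoxa2 and Hoxc6 missed the threshold under 4, Hoxa5 under 5 and Hoxb9 under 11 of them. With log2 CPM of Xist as a covariate, 3 members passed, against 3.82% of all genes. They were Hoxc8 (log2 difference -1.84, adjusted P = 0.0144), Hoxc9 (-0.99, adjusted P = 0.0254) and Hoxc5 (-1.12, adjusted P = 0.0369). Hoxb9 was then at 0.39 (adjusted P = 0.236). Leaving out 1 library moved the share of all genes that passed as well as the members. Without WT TGFb1 4, 3 members passed, against 3.03% of all genes. The members were 4 without WT TGFb1 2, WWP2-/- TGFb1 4 or WWP2-/- TGFb1 5, against 2.23%, 2.81% and 3.22% of all genes. They were 11 without WT TGFb1 3, against 13.4%, and 12 without WWP2-/- TGFb1 1, against 10.3%. Within libraries that had Xist, Hoxc8 was at 81.3 to 114 CPM in 4 WT libraries and at 27.9 CPM in the 1 WWP2-/- library, and within those without Xist it was at 99.3 CPM in 1 WT library and 20.6 to 26.6 CPM in 4 WWP2-/- libraries. The same direction within both sets held for Hoxc9 (55.7 to 68.5 against 30.3 CPM with Xist, 57.9 against 26.5 to 33.6 CPM without), and each of these sets has an arm of 1 library. In untreated cells the direction differed between the sets. With Xist, Hoxc8 was at 76.0 to 96.9 CPM in 4 WT and 26.6 to 29.4 CPM in 2 WWP2-/- libraries and Hoxc9 at 40.9 to 53.0 against 30.0 to 33.1 CPM. Without Xist, Hoxc8 was lower in the 1 WT library, WT untreated 4, than in 3 WWP2-/- libraries (19.4 against 28.5 to 39.3 CPM), as was Hoxc9 (24.2 against 31.3 to 41.7 CPM). With TGFb1, Hoxb9 was at 98.2 to 119 CPM in the WT and 108 CPM in the WWP2-/- library with Xist, and at 126 against 212 to 292 CPM in those without. Without WWP2-/- untreated 3 and WWP2-/- TGFb1 1, chosen after seeing the data, 17 members passed, 10 higher and 7 lower, against 17.2% of all genes in that fit. Without WT untreated 4 and WT TGFb1 3, also chosen after seeing the data, 14 passed, 7 in each direction, against 16.5% of all genes. Hoxd9 and Hoxd11 passed in 6 and 3 of the 18 alternatives (adjusted P from 0.00917 to 0.189 and from 0.00669 to 0.683).

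The same question was asked of untreated cells. None of the 34 tested members passed by edgeR's quasi-likelihood test, against 0.725% of all genes (0.103% higher and 0.622% lower), while 12 had an unadjusted P under 0.05 and DESeq2's Wald test called 4, against 3.64% of all genes, with Hoxd13 and Hoxd8 as higher and Hoxc8 and Hoxa5 as lower. Hoxc8 was at 79.1, 76.0, 96.9, 19.4 and 90.9 CPM in the 5 WT and 29.4, 28.5, 26.6, 35.1 and 39.3 CPM in the 5 WWP2-/- libraries. All WWP2-/- libraries were below 4 of the WT libraries, and WT untreated 4 was below all WWP2-/- libraries. The log2 difference was -1.28 (SE 0.30, adjusted P = 0.0574), and without WT untreated 4 it was -1.56 (adjusted P = 4.18e-04). Over the 18 alternatives the adjusted P of Hoxc8 ran from 3.91e-05 to 0.179. Without that library, 6 members passed, against 3.67% of all genes. Hoxd9, Hoxd8 and Hoxd13 were then higher, and Hoxc8, Hoxa5 and Hoxa2 lower. For the other genes that passed with TGFb1, the untreated log2 difference was -0.34 (SE 0.19, adjusted P = 0.421) for Hoxc9, -0.36 (SE 0.27, adjusted P = 0.544) for Hoxc6, -0.15 (SE 0.26, adjusted P = 0.816) for Hoxc5, -0.57 (SE 0.23, adjusted P = 0.259) for Hoxa2 and 0.40 (SE 0.24, adjusted P = 0.451) for Hoxb9.

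Hoxa5 was at 42.8, 43.1, 40.8, 30.1 and 45.0 CPM in untreated WT and 26.5, 29.2, 37.2, 24.3 and 26.0 CPM in untreated WWP2-/- libraries, where WT untreated 4 and WWP2-/- untreated 3 made the groups overlap (log2 difference -0.57, SE 0.16, adjusted P = 0.104). Hoxd8 was at 13.8, 16.8, 8.07, 22.1 and 9.14 CPM and 28.5, 34.9, 19.7, 31.2 and 26.0 CPM, with the same 2 libraries overlapping (log2 difference 0.96, SE 0.27, adjusted P = 0.102). The other members with an unadjusted P under 0.05 were Hoxd9, Hoxd11, Hoxa11, Hoxc10 and Hoxc11 with values above 0, Hoxd13, and Hoxa2, Hoxa7 and Hoxc13 with values below 0. Hoxc13, the most posterior member above 1 CPM, was at 3.47, 3.36, 6.62, 0.865 and 4.20 CPM in WT and 1.68, 0.68, 1.36, 1.35 and 1.67 CPM in WWP2-/-. Hoxd13, a gene of the most posterior body, was the 1 member of 34 whose libraries did not overlap, close to the share of 2.82% of all genes. It had no count in 4 WT libraries and 0.0509 CPM in WT untreated 4, against 0.233, 0.0647, 0.0617, 0.25 and 0.242 CPM in WWP2-/-. WT untreated 4 and WWP2-/- untreated 3 both held 3 counts, so their CPM differed only through the library total. All WT libraries and WWP2-/- untreated 3 were thus at or under the limit of 3 counts, and no fold is given.

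The effect of TGFb1 was asked within each genotype, and these tests share libraries with the genotype comparisons. In WT cells 0 of 34 members passed by edgeR's quasi-likelihood test, where 0% of all genes passed. A single member had an unadjusted P under 0.05, and DESeq2's Wald test called 27 genes of all tested and no Hox gene. That member was Hoxc9, at 40.9, 46.5, 53.0, 24.2 and 46.8 CPM untreated and 55.7, 59.2, 57.9, 68.5 and 57.0 CPM with TGFb1 (log2 difference 0.59, SE 0.19, adjusted P = 0.641), and its libraries did not overlap, as in 1.19% of all genes. In WWP2-/- cells 0 of 34 members passed, where 0% of all genes passed and DESeq2's Wald test called 49 genes and no Hox gene. The 2 members with an unadjusted P under 0.05 there were Hoxc5 (log2 difference -0.64, SE 0.26, adjusted P = 1) and Hoxa7 (0.32, SE 0.14, adjusted P = 1). Hoxc5 was at 5.65, 5.62, 6.84, 5.86 and 9.02 CPM untreated and 5.13, 4.94, 4.38, 2.68 and 3.37 CPM with TGFb1 in WWP2-/- cells, and this was the 1 member whose libraries did not overlap, as in 0.421% of all genes. The median log2 difference with TGFb1 was 0.18 for Hoxa, -0.39 for Hoxb, 0.36 for Hoxc and -0.05 for Hoxd in WT cells, and 0.02, 0.18, -0.26 and -0.21 in WWP2-/- cells, beside 0.02 and 0.0010 for all genes tested.

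Whether the genotype difference itself changed with TGFb1 was tested by the interaction. Here too 0 of 34 members and 0% of all genes passed with edgeR. The unadjusted P was under 0.05 for 3 members, and DESeq2's Wald test called 10 genes and no Hox gene. The 3 were Hoxc5 (log2 -1.12, SE 0.37, adjusted P = 0.546), Hoxc9 (-0.79, SE 0.27, adjusted P = 0.549) and Hoxb2 (0.86, SE 0.37, adjusted P = 0.659). For Hoxc8 it was -0.78 (SE 0.42, adjusted P = 0.768). A genotype difference that passed with TGFb1 and not without it was thus not shown to differ between the 2 conditions.

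Libraries were also compared by their whole Hox profile, as the root mean square difference of log2(CPM + 1) over the 31 members above 1 CPM. The closest library of each was 0.123 to 0.55 log2 units away, and the median over all pairs was 0.771. For 18 of 20 libraries the closest one had the same genotype, and over all 20407 genes tested the count was 18 as well. For 14 libraries the closest one by Hox profile was also the closest over all genes tested. WWP2-/- untreated 3 and WWP2-/- TGFb1 1 were each other's closest (0.186), across treatment. So were WT untreated 3 and WT TGFb1 4 (0.246). WT untreated 4 and WWP2-/- TGFb1 5 were each other's closest (0.199), across genotype. Of the 20 libraries, 2 had as their closest library of the other treatment and the same genotype the one with their own replicate number. The other 18 were closer to a library with another number.

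The Hoxb level moved between libraries together with markers of other kidney cells. The 5 libraries with the highest summed Hoxb level were WWP2-/- untreated 2 (785 CPM), WWP2-/- TGFb1 5 (763 CPM), WT untreated 4 (728 CPM), WWP2-/- TGFb1 4 (714 CPM) and WWP2-/- TGFb1 2 (682 CPM), and no other library was above 552 CPM. The same 5 had the highest summed level of 10 nephron tubule markers, 415 to 879.9 CPM against 19.1 to 386 CPM in the others. They included 4 of the 5 highest libraries for 13 collecting duct markers (31.8 to 124 CPM against 5.24 to 75.7 CPM) and 4 of the 5 highest for 10 macrophage markers (1001 to 4269.6 CPM against 72.1 to 1147 CPM). Of the defining markers, the collecting duct genes Aqp2, Avpr2 and Calb1 and the proximal tubule genes Slc34a1 and Slc5a2 stayed below 0.1 CPM in every library. The fibroblast markers summed to 6705 to 9993 CPM in the 5. Of the other libraries, WWP2-/- untreated 3 and WWP2-/- TGFb1 1 were lower (4734 and 5609 CPM), and all 13 remaining libraries lay above each of the 5, at 10218 to 33666 CPM. Endothelial markers were at 126 to 240.0 CPM in the 5 and 65.7 to 280.1 CPM in the others, and smooth muscle and pericyte markers at 638 to 891 and 88.4 to 1223 CPM. The part of other cells in the Hox levels was not tested.

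With TGFb1, the summed nephron tubule markers ran from 41.0 to 259 CPM in WT and from 19.1 to 676 CPM in WWP2-/- libraries, and the macrophage markers from 72.1 to 467 and from 84.7 to 3754 CPM. Hoxc8 was at 27.9 CPM in WWP2-/- TGFb1 1, which had the lowest nephron tubule sum of all libraries. It was at 20.6 CPM in WWP2-/- TGFb1 5, with a sum of 676 CPM. The lowest Hoxc8 of all libraries, 19.4 CPM, was in WT untreated 4, with a sum of 521 CPM. A relation of Hoxc8 to these markers was not tested. Hoxb9 was at 108 CPM in WWP2-/- TGFb1 1 and 274 CPM in WWP2-/- TGFb1 5. In the marker lists, 3 of 12 fibroblast genes and 2 of 9 endothelial genes were lower in WWP2-/- with TGFb1, against 3.97% of all genes. In the other lists, 0 of 9 collecting duct, 0 of 7 nephron tubule, 0 of 10 macrophage and 0 of 8 smooth muscle genes tested passed with edgeR. The median log2 difference was -2.12 for the fibroblast, 2.18 for the collecting duct, 1.21 for the nephron tubule and 2.52 for the macrophage markers. It was 0.40 for the endothelial and 0.53 for the smooth muscle and pericyte markers, beside 0.05 for all genes tested.

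**Figure D5:**
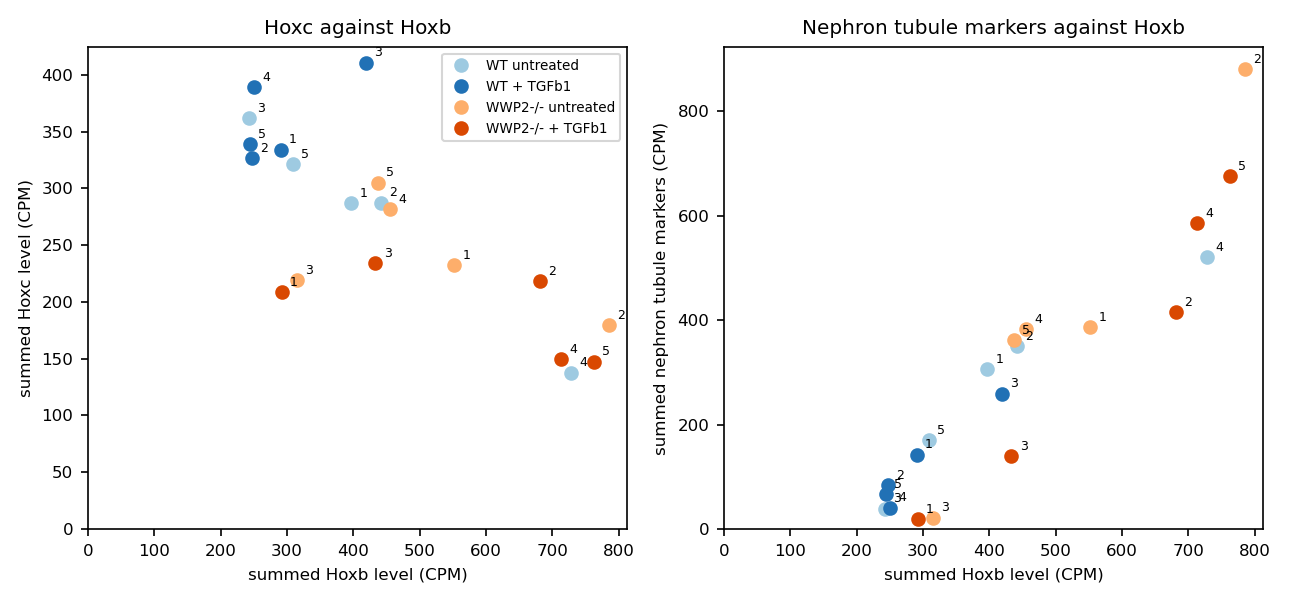
Summed Hoxc level (left) and summed level of 10 nephron tubule markers (right) against the summed Hoxb level, all in CPM, 1 point per library with its number and colours for the 4 groups. WT untreated 4 lies among WWP2-/- libraries at 728 CPM of Hoxb and 138 CPM of Hoxc, and the nephron tubule sum is highest in the 5 libraries with the most Hoxb.

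The partners and regulators of Hox genes were read from lists of 9 to 23 genes. Pbx, Meis and Pknox proteins of the TALE class bind DNA together with Hox proteins. With TGFb1, 2 of 9 were lower in WWP2-/- cells and none was higher, Pbx2 at 50.7 ± 3.76 and 41.2 ± 5.56 CPM in WT and WWP2-/- (log2 difference -0.44, SE 0.08, adjusted P = 0.00697) and Pbx3 at 23.1 ± 2.76 and 16.9 ± 2.08 CPM (-0.58, SE 0.16, adjusted P = 0.043). Meis1 was at 39.4 ± 16.8 and 15.2 ± 12.97 CPM (-1.49, SE 0.58, adjusted P = 0.123), and the log2 difference of Pknox1 was 0.23 (SE 0.07, adjusted P = 0.0684). Polycomb proteins keep Hox genes silent. Of 23 Polycomb and H3K27 demethylase genes, 1 was lower and none higher. It was Cbx6, at 289 ± 29.1 and 202 ± 47.8 CPM (-0.66, SE 0.15, adjusted P = 0.0154). The log2 difference was 0.50 (SE 0.15, adjusted P = 0.0511) for Pcgf6, -0.69 (SE 0.21, adjusted P = 0.0594) for Pcgf5 and 0.25 (SE 0.09, adjusted P = 0.0914) for Phc2. None of 10 Trithorax genes, which keep Hox genes active, passed with edgeR, and the lowest adjusted P were 0.203 for Psip1 and 0.306 for Dpy30.

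Retinoic acid switches on anterior Hox genes in the embryo, and Cdx proteins act on central ones. Of 20 genes of this list, 15 were tested, 4 were lower and 1 was higher in WWP2-/- with TGFb1. Aldh1a1, which makes retinoic acid, was at 41.3 ± 10.1 CPM in WT and 5.01 ± 2.48 CPM in WWP2-/- without overlap (log2 difference -3.22, SE 0.67, adjusted P = 0.0133). Cyp26b1, which degrades retinoic acid, was at 13.1 ± 7.91 and 2.24 ± 2.10 CPM (-2.70, SE 0.70, adjusted P = 0.031). The receptor Rxra was at 89.4 ± 5.08 and 70.4 ± 14.3 CPM (-0.47, SE 0.12, adjusted P = 0.0304). The gene that was higher, named after its value was seen, was Cyp26a1, another enzyme that degrades retinoic acid. It was at 0.107 ± 0.102 and 0.705 ± 0.478 CPM (log2 difference 2.70, SE 0.76, adjusted P = 0.0422). Both means were below 1 CPM and the WT mean was close to the limit of 3 counts, so the size of this rise is uncertain. Without TGFb1, no gene of the TALE, Polycomb, Trithorax, retinoic acid or noncoding lists passed between the genotypes with edgeR.

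The clusters also hold noncoding genes, of which 45 were listed and 23 tested. With TGFb1, 2 were lower in WWP2-/- cells and none was higher. Hoxaas2, which overlaps Hoxa3 on the opposite strand, was at 3.92 ± 0.929 CPM in WT and 1.60 ± 0.328 CPM in WWP2-/- (log2 difference -1.44, SE 0.26, adjusted P = 0.0084). Reads counted to Mir615, inside Hoxc5, were at 0.177 ± 0.0796 and 0.0285 ± 0.0211 CPM (adjusted P = 0.0084), with the WWP2-/- libraries at or below the limit of 3 counts, so that no fold is given. Hotair, a long noncoding RNA of the Hoxc cluster, was at 0.105 ± 0.0795 and 0.293 ± 0.133 CPM (1.38, SE 0.52, adjusted P = 0.109), and Gm28309 was at 0.0072 ± 0.0099 and 0.0629 ± 0.0309 CPM, close to the limit of 3 counts. Poly-A libraries do not measure mature miRNAs, so the levels of the cluster miRNAs were not analysed here. A single mature strand of each is shown, because the strands chosen fall into 3 seed groups, of which 2 recur across clusters. The other strands have other seeds and are not shown. Bases 2 to 8 are in capitals (RefSeq, GRCm38.p6).
miR-10a-5p (chr11:96317186-96317208, plus strand, beside Hoxb4): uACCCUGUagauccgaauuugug
miR-10b-5p (chr2:74726074-74726096, plus strand, beside Hoxd4): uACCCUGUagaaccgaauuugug
miR-196a-5p (chr11:96265187-96265208, plus strand, beside Hoxb9, and again in Hoxc): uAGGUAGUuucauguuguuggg
miR-196b-5p (chr6:52230129-52230150, minus strand, in the span of Hoxa9): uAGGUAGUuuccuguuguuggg
miR-615-3p (chr15:103014969-103014990, plus strand, in the span of Hoxc5): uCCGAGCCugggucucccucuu
Among the strands shown, the miR-10 pair shares 1 seed, the miR-196 family another, and miR-615-3p has its own. The annotated span of Hoxd4 (chr2:74711929-74729160) includes miR-10b-5p, so it too lies in the span of a Hox gene and not only beside it.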

How the data were processed

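RNA from primary renal myofibroblasts, extracted at early passage, was sequenced as poly-A selected paired-end libraries, 5 for each of 4 groups. The authors aligned the reads to GRCm38 (mm10) with STAR and counted them per gene over exons with featureCounts, and the deposited values are raw counts. The strand setting is not given in the sources used here. Total counts per library ran from 47520759 to 73063697, so that 3 counts, the limit that a count of 0 allows, lay between 0.0411 and 0.0631 CPM (counts scaled to the same library total), for counting error only. No 2 libraries held identical counts.

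Genes reaching 5 counts in 5 or more libraries (20407 of 51826) were tested with edgeR 4.0.16 in R 4.3.3, by TMM scaling and the quasi-likelihood F test over all 20 libraries and 4 groups. P values were adjusted by Benjamini-Hochberg over all genes tested, with a threshold of 0.05. The SE is the log2 fold change divided by the square root of F. CPM per library used total counts, and levels per kb used the union of exon bases. Cluster sums are descriptions. The tests were checked on simulated counts.

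Every Hox gene enters the counts and sums, but a few genes and sequences are not reported here. Those with a mean of at least 1 CPM in a group, or past the threshold, are described with values, and at most 4 genes of each partner or regulator list are named, by lowest adjusted P between the genotypes with TGFb1. The members and lists were chosen with earlier results of these data known. Alternatives were DESeq2's size factors, DESeq2 1.42.0, other count filters, Xist as a covariate (log2(CPM + 2)), replicate numbers as a block, and leaving out libraries. Homeoboxes came from GENCODE M21 transcripts, and promoters and miRNAs from RefSeq on GRCm38.p6, with 22 of 39 members in the promoter table.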

Additional observations from a re-analysis of the deposited data

Results flagged for a closer look

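In each group of 5 libraries, the highest and the lowest level of every member above 1 CPM and of every cluster sum was set against the other 4, and a library is named here where its gap to the nearest exceeded 0.71 of the group's range (Dixon's critical value). Of 140 sets looked at, 18 did so, where chance marks about 1 in 20 groups, and the genes of a cluster share their libraries. WT TGFb1 3 had 64.2 CPM of Hoxa7 against 36.0 to 40.2, 64.9 CPM of Hoxa9 against 28.4 to 37.9, 109 CPM of Hoxa10 against 49.0 to 62.5 CPM in the other 4. WT TGFb1 3 had 29.8 CPM of Hoxb4 against 23.6 to 25.1, 22.9 CPM of Hoxb5 against 7.65 to 11.96, 90.5 CPM of Hoxb8 against 28.9 to 40.5 CPM in the other 4. WT TGFb1 3 had 335 CPM of summed Hoxa against 195 to 222, 419 CPM of summed Hoxb against 244 to 290.2 CPM in the other 4. WT untreated 4 had 30.1 CPM of Hoxa5 against 40.8 to 45.0, 41.6 CPM of Hoxb4 against 26.5 to 29.2, 19.4 CPM of Hoxc8 against 76.0 to 96.9 CPM in the other 4. WWP2-/- TGFb1 1 had 25.2 CPM of Hoxa9 against 48.8 to 54.0, 21.4 CPM of Hoxc4 against 4.03 to 6.55 CPM in the other 4. WT TGFb1 4 had 5.84 CPM of Hoxb3 against 11.8 to 13.3, 68.5 CPM of Hoxc9 against 55.7 to 59.2 CPM in the other 4. WWP2-/- TGFb1 3 had 33.7 CPM of Hoxa5 against 28.6 to 29.5 CPM in the other 4. WWP2-/- untreated 2 had 48.7 CPM of Hoxa7 against 29.6 to 34.7 CPM in the other 4. WT TGFb1 5 had 59.2 CPM of Hoxc10 against 47.6 to 50.6 CPM in the other 4. No Hox gene passed the test of the interaction of genotype and TGFb1 (0 of 34 with edgeR, 3 with an unadjusted P under 0.05, 0 with DESeq2's Wald test).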

How the results depend on the processing

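Between the genotypes with TGFb1, the 7 Hox genes became 3 with Xist as a covariate, against 3.82% of all genes. They became 13 with DESeq2's Wald test (7 higher, 6 lower), against 13.1%. When 1 library was left out, they ranged from 3 (without WT TGFb1 4) to 12 (without WWP2-/- TGFb1 1), against 3.03% and 10.3%. Untreated, the count of 0 became 4 with DESeq2's Wald test, against 3.64% of all genes. It ranged from 0 to 6 when 1 library was left out, the latter without WT untreated 4, against 3.67%. Without WWP2-/- untreated 3 and WWP2-/- TGFb1 1, 17 Hox genes passed with TGFb1 and 4 untreated, against 17.2% and 1.34% of all genes. Without WT untreated 4 and WT TGFb1 3, 14 and 7 passed, against 16.5% and 5.63% of all genes. Both sets of libraries were chosen after seeing the data. With DESeq2's size factors in edgeR, 7 of 34 members passed with TGFb1, against 5.97% of all genes. Without a count filter 6 of 39 passed, against 2.25%, and with at least 10 counts in every library 8 of 31, against 7.73%. Untreated, 0 passed in each of these fits, against 0.755%, 0.321% and 0.813% of all genes. Over all genes, the 1239 that passed with TGFb1 became 790 without a filter, 779 with Xist, 670 with the block and 2672 with DESeq2, and the 148 untreated became 88 with Xist, 1 with the block and 743 with DESeq2. The cause of these changes was not tested. TGFb1 within each genotype and the interaction gave 0 Hox genes under every alternative run, and none of the 7 genes that passed between the genotypes with TGFb1 changed sign in any alternative of that comparison.

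The replicate numbers did not pair the libraries as a set, and whether single pairs share a culture cannot be told. Of 10 same-numbered pairs of one genotype, 5 deviated together with r over 0.1 and 3 had r below -0.1 (from -0.53 to 0.50), and 3 of 20 libraries correlated best with their own number. With the replicate number as a block, 6 Hox genes passed with TGFb1 and 0 untreated, against 3.28% and 0.0049% of all genes.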
